A study of Mus musculus with 64 samples.

Results

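De novo lipogenesis is the synthesis of fatty acids from acetyl-CoA, and its core was described here by 10 genes: *Acly*, *Acaca*, *Acacb*, *Fasn*, *Elovl6*, *Scd1*, *Me1*, *Mlxipl*, *Srebf1* and *Thrsp*. The genes were taken from the table by their symbols. They are 10 of the 52636 genes listed, each symbol matched 1 Ensembl identifier, and all 10 were among the 20249 genes that passed the filter on low counts. Total RNA of 2 depots of male mice was sequenced at zeitgeber time (ZT) 6, 10, 18 and 22 h after lights on. The depots were the brown adipose tissue, BAT, and a white one, the epididymal adipose tissue (eWAT). Both genotypes came from a line in which an exon of *Nampt* is flanked by loxP sites, crossed with Adiponectin-Cre mice. FANKO mice lacked *Nampt* in adipocytes, and their controls, labeled wildtype (WT), were littermates without Cre. NAMPT is the rate-limiting enzyme of NAD+ salvage, and Adiponectin-Cre acts in cells that express adiponectin, so other cells of the tissue keep the gene. The mice were kept at room temperature on chow. Each of the 16 groups held 4 samples, so 64 samples in all and 16 for each genotype in each depot. The labels number the samples of a group without naming the animals, so the p values measure the spread between samples.

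The pathway starts with citrate that leaves the mitochondria. ATP citrate lyase (*Acly*) cleaves it to acetyl-CoA, the acetyl-CoA carboxylases (*Acaca* in the cytosol, *Acacb* at the mitochondrial surface) make malonyl-CoA, and fatty acid synthase (*Fasn*) builds palmitate with NADPH that malic enzyme (*Me1*) helps to supply. ELOVL6 lengthens palmitate and SCD1 introduces a double bond. The transcription factors SREBP-1 (*Srebf1*), which is driven by insulin, and ChREBP (*Mlxipl*), which is driven by glucose metabolites, switch these genes on, and THRSP (Spot 14) is a small protein of lipogenic tissues that promotes the pathway. Brown fat of mice is known for high lipogenic capacity, which is raised further when it burns fuel for heat.

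The deposited counts summed to 6117343 to 30544847 per sample (median 15826651). The lowest count of any of the 10 genes in any sample was 435 (*Elovl6*), and the SEs below come from the spread between samples. That spread was estimated for each gene over all 64 samples together, so an SE in 1 depot also carries the spread of the other. Values below are CPM (counts relative to library size) scaled by edgeR's TMM factors, which make the bulk of genes equal between libraries. The median factor of BAT libraries was 0.740 for WT and 1.08 for FANKO, and that of eWAT libraries 1.23 and 1.04. Mitochondrially encoded genes held a median share of 24.6% (WT) and 14.7% (FANKO) of the counts in BAT and of 6.55% and 10.7% in eWAT. *Nampt* had group means of 502 to 987 CPM in WT BAT and 130 to 158 CPM in FANKO BAT, and fell by 2.31 ± 0.07 on the log2 scale (edgeR FDR 1.09e-36). In eWAT it fell by 0.50 ± 0.07 (FDR 4.67e-09), and at ZT6 the means were 119 CPM in WT and 117 CPM in FANKO, with overlapping samples. The 6 brown adipocyte markers summed to 4942 to 10870 CPM in WT BAT and to 12.2 to 36.7 CPM in WT eWAT.

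Promoter sequences are shown for 3 genes on which the results below turn, the enzyme *Fasn* and the members with a daily rhythm or a lasting fall in BAT, *Mlxipl* and *Acacb*. Each is the 250 bases before a RefSeq transcription start (GRCm38.p6), 5′ to 3′ on the gene's strand, with motif letters in capitals. Motifs were searched by their letters on both strands: the CCAAT box (CCAAT or ATTGG), the GC box (GGGCGG or CCGCCC), the E-box CACGTG and the TATA box TATAAA.

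Fasn, chr11:120824548-120824797, reverse strand: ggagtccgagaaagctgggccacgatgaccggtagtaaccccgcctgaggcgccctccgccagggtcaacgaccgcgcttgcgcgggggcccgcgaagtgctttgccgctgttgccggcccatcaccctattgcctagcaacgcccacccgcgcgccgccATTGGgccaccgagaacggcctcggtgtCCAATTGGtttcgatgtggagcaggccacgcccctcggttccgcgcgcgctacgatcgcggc
Acacb, chr5:114165268-114165517, forward strand: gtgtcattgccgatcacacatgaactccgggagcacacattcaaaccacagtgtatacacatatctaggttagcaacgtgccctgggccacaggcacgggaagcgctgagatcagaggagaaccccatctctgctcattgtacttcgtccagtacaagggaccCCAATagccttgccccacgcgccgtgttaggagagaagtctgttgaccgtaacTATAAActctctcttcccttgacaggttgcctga
Mlxipl, chr5:135089640-135089889, forward strand: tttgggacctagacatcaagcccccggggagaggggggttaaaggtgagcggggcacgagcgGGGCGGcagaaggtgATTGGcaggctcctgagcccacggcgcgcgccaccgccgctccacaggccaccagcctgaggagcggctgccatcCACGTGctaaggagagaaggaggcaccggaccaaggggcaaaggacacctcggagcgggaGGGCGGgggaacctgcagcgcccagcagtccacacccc

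*Fasn* carries CCAAT boxes at 90, 62 and 59 bases before the start, and those at 62 and 59 overlap on opposite strands. *Acacb* has a CCAAT box at 87 and a TATA box at 34 bases before the start. That start lies inside the *Acacb* gene model, which begins at chr5:114146535. *Mlxipl* was the only member with the E-box, at 98 bases, and this upstream window is 1 of 2 listed for the gene. Of the 9 members in the promoter table, 6 had a CCAAT box and 4 a GC box. Over all 32851 promoters the shares were 33.8% for the CCAAT box, 32.7% for the GC box, 6.02% for the E-box and 12.4% for the TATA box. These shares count single windows. A member was counted if any of its windows had the motif, and *Srebf1*, *Mlxipl* and *Me1* have more than 1, so the members' counts are not directly comparable with the shares. The match of letters is a description and was not tied to any factor here.

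In eWAT every member was higher in FANKO than in WT. All 10 passed an FDR of 0.01 for the mean level over the day (edgeR quasi-likelihood test, adjusted over all 20249 genes), where 27.6% of all genes passed it with a higher level. The median difference of the members was 1.26 on the log2 scale, and that of all genes was -0.02. The genes called include every enzyme of the list and all 3 regulators, and the difference was largest for the elongase *Elovl6* and for *Acly*.

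*Acly* (chr11:100476353-100528000) stood at 200 to 4670 CPM in the 16 WT eWAT samples (median 1905) and at 4396 to 9229 CPM in FANKO eWAT (median 7524). Only 1 FANKO sample lay within the WT range. The difference was 1.91 ± 0.22 (log2, SE), a 3.75-fold higher level (FDR 7.56e-11).

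The cytosolic carboxylase *Acaca* (chr11:84129672-84401651) ranged from 305 to 2398 CPM in WT eWAT (median 1506) and from 3330 to 4950 CPM in FANKO eWAT (median 4224). No sample of the genotypes overlapped, and the difference was 1.53 ± 0.16 (FDR 1.83e-12). *Acacb* (chr5:114146535-114250761), whose malonyl-CoA restrains fatty acid entry into mitochondria, went from 126 to 699 CPM in WT (median 268) and from 365 to 919 CPM in FANKO (median 666.5). Here 10 of 16 FANKO samples lay within the WT range, and the difference was 1.06 ± 0.10 (FDR 9.18e-14).

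*Fasn* (chr11:120805846-120824547) ranged from 1465 to 21970 CPM in WT eWAT (median 13450) and from 22750 to 37740 CPM in FANKO eWAT (median 30430). The lowest FANKO sample lay just above the highest WT sample, and the level was 2.37-fold higher (1.24 ± 0.19, FDR 9.53e-08). *Me1* (chr9:86581371-86695953) had medians of 626 CPM in WT and 1424 CPM in FANKO, with 12 of 16 FANKO samples above every WT sample (1.28 ± 0.21, FDR 4.85e-07).

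*Elovl6* (chr3:129532355-129638495) showed the largest difference of the 10. It ranged from 15.3 to 751 CPM in WT eWAT (median 275) and from 1170 to 3106 CPM in FANKO eWAT (median 2272), with no overlap. The level was 7.39-fold higher (2.89 ± 0.27, FDR 3.39e-14). *Scd1* (chr19:44394455-44407879), the most abundant of the 10, rose from 14640 to 54390 CPM in WT to 65140 to 95150 CPM in FANKO, also without overlap (0.98 ± 0.14, FDR 1.21e-08). Complete separation with FANKO higher was found for *Fasn*, *Acaca*, *Elovl6* and *Scd1*, where 4.57% of all genes showed it.

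The regulators rose too. *Srebf1* (chr11:60199089-60222581) had medians of 445 CPM in WT eWAT and 1102 CPM in FANKO eWAT (1.22 ± 0.12, FDR 1.46e-13). *Mlxipl* (chr5:135089890-135138382) had medians of 55.8 and 125 CPM (1.09 ± 0.10, FDR 1.50e-14). For each of them 15 of 16 FANKO samples lay above every WT sample. *Thrsp* (chr7:97412938-97417730) had medians of 919 and 2587 CPM (1.28 ± 0.14, FDR 4.03e-12), with 7 of 16 FANKO samples above every WT sample, because WT values at ZT18 and ZT22 reached 2706 CPM.

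The 7 adipocyte markers summed to 11000 to 19430 CPM in WT eWAT and to 11760 to 16940 CPM in FANKO eWAT, and none of them was at 0. Of these markers, 1 was called higher and 4 lower in FANKO. The 6 macrophage markers summed to 389 to 605 CPM in WT and 383 to 693 CPM in FANKO, with 3 called higher, while the 4 stromal markers were all called lower, from 2122 to 3723 CPM in WT to 1281 to 1869 CPM in FANKO. The 6 brown adipocyte markers summed to 12.2 to 36.7 CPM in WT eWAT and 49.0 to 106 CPM in FANKO eWAT, without overlap, with 2 called higher and 1 lower, and of the 5 lymphocyte markers 1 was called higher and 3 lower. The part of these shifts in the lipogenic result was not tested. With all samples scaled to equal adipocyte markers, a setting chosen after seeing the data, all 10 genes remained higher in FANKO eWAT, by 1.51 to 3.41. This scaling used the mean log2 level of the 7 markers, which weights them alike, unlike the sums. In eWAT *Lep* (medians 1119 CPM in WT, 336 CPM in FANKO) and *Retn* (907 and 363 CPM) were lower in FANKO, and *Fabp4* (6399 and 8967 CPM) was higher. The scaling thus follows marker levels and does not measure adipocyte content. That scaling moved the median gene in eWAT up by 0.51, and 57.1% of all genes were called higher and 4.5% lower. The same 10 were called higher with library size alone, which moved the median gene in eWAT by -0.25.

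**Figure D1:**
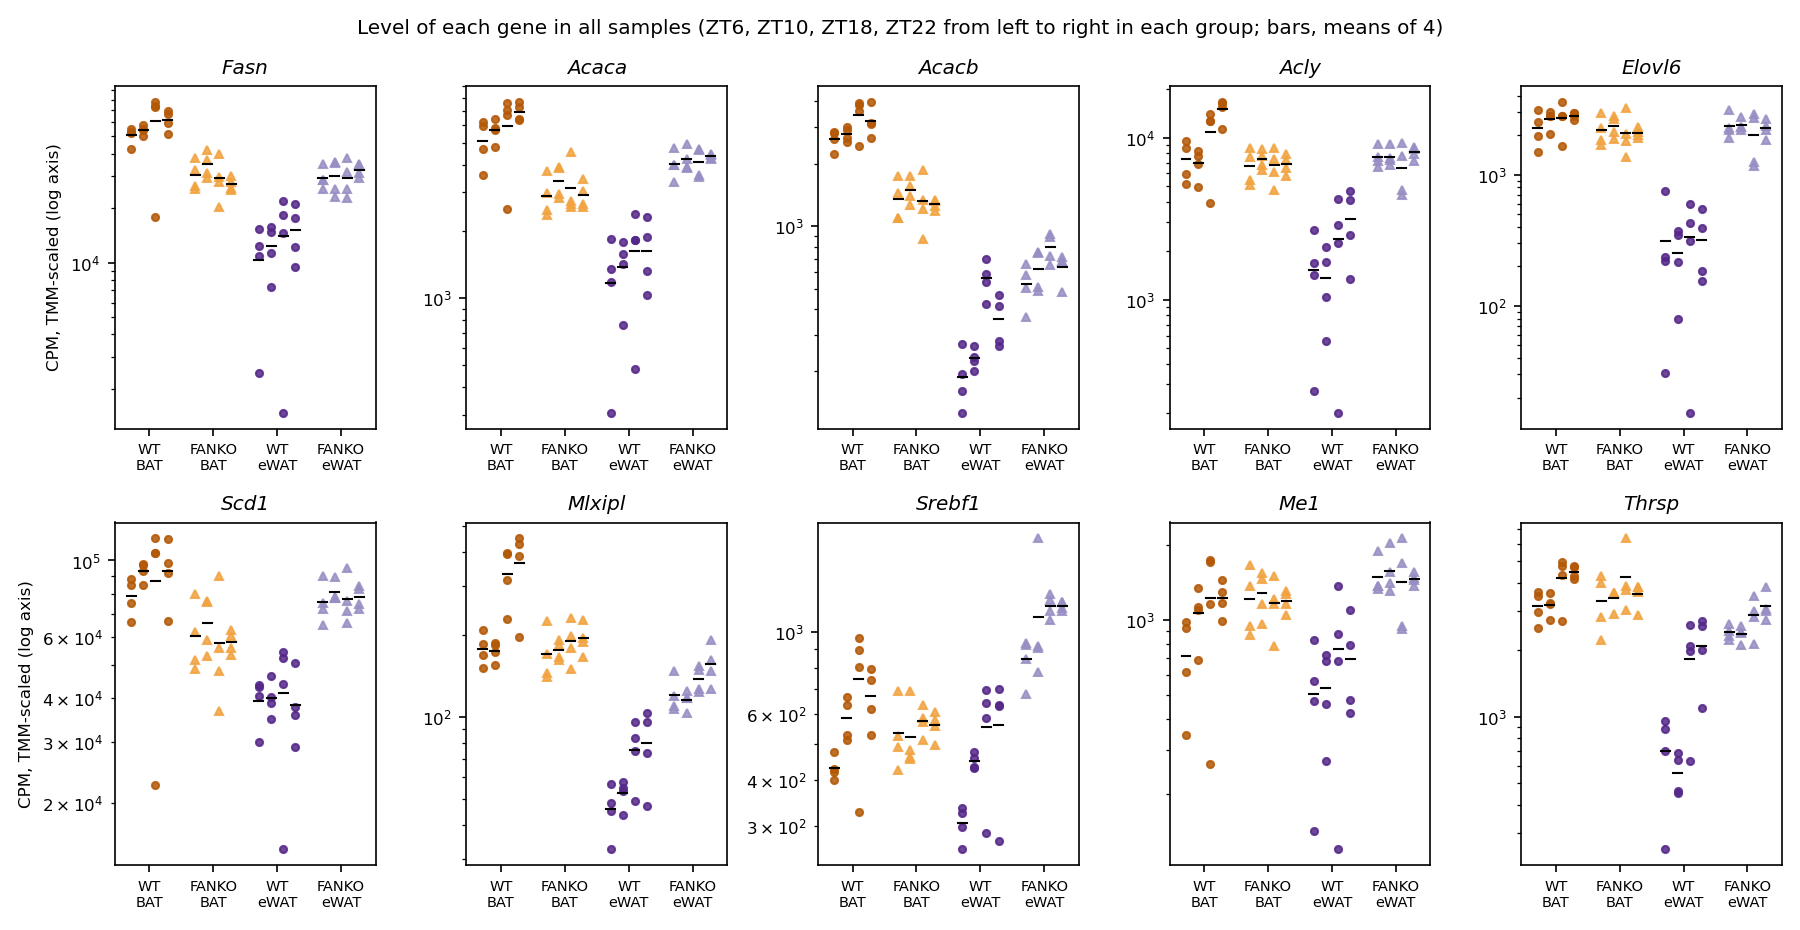
Level of each of the 10 genes in every sample, in TMM-scaled CPM on a log axis. Circles are WT and triangles FANKO samples, the 4 columns in each group are ZT6, ZT10, ZT18 and ZT22, and black bars are means of 4. In eWAT the FANKO samples of *Fasn*, *Acaca*, *Elovl6* and *Scd1* all lie above the WT samples, and in BAT those of *Acacb* all lie below.

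In BAT the picture differed. With TMM scaling, 5 members were lower in FANKO and none was higher, where 33.9% of all genes were called lower and 33.1% higher. The median difference of the members was -0.46, against 0.00 for all genes. The 5 were both carboxylases, *Fasn*, *Scd1* and *Mlxipl*.

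*Acacb* gave the firmest difference in BAT. It ranged from 2227 to 3994 CPM in the 16 WT samples (median 2879) and from 869 to 1860 CPM in the FANKO samples (median 1331). Every FANKO sample lay below every WT sample, as for 10% of all genes, and the level fell by 1.15 ± 0.10 on the log2 scale (FDR 1.19e-15).

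*Acaca* ranged from 2531 to 7679 CPM in WT BAT (median 6255) and from 2371 to 4536 CPM in FANKO BAT (median 2896), a change of -0.94 ± 0.16 (FDR 3.27e-07). *Fasn* ranged from 17870 to 78040 CPM in WT (median 54800) and from 20250 to 42210 CPM in FANKO (median 29620), a change of -0.90 ± 0.19 (FDR 2.70e-05). Replicate 4 of WT BAT at ZT18 held the lowest WT value of both genes. For *Fasn* it lay below every FANKO sample, while the other 15 WT samples lay above every FANKO sample. For *Acaca* it lay within the FANKO range, as did the WT replicate 1 at ZT6 (3590 CPM). Without that ZT18 library 5 members were again called lower.

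*Scd1* had medians of 92840 CPM in WT BAT and 57510 CPM in FANKO BAT (-0.54 ± 0.14, FDR 3.50e-04), and the call was lost without replicate 2 (FDR 0.017). *Mlxipl* had medians of 202 and 181 CPM (-0.45 ± 0.10, FDR 3.98e-05), and by time point it was called at ZT18 and ZT22, as described below. The other 5 did not pass the threshold. *Acly* differed by -0.47 ± 0.22 (FDR 0.046), *Elovl6* by -0.26 ± 0.25 (FDR 0.34), *Srebf1* by -0.12 ± 0.12 (FDR 0.33), *Thrsp* by -0.04 ± 0.13 (FDR 0.82) and *Me1* by 0.22 ± 0.21 (FDR 0.33). With a separate edgeR fit for each depot *Acly* was called lower (-0.43, FDR 0.0043).

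The direction in BAT depended on the scaling for most members. Against library size alone the median gene of FANKO BAT moved up by 0.59, and 3 members were called higher (*Srebf1*, *Me1* and *Thrsp*) and 1 lower (*Acacb*). All genes called split into 49.4% higher with TMM and 84.9% higher with library size alone. With samples scaled to equal adipocyte markers the calls were the same in number, 3 higher and 1 lower, and the members ranged from -0.45 to 0.92. That scaling moved the median gene of BAT up by 0.71, and 67.7% of all genes were called higher and 9% lower. *Acacb* was called lower under all 3 scalings, and no other member was.

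FANKO BAT also differed from WT BAT in its cell type markers. The 7 adipocyte markers summed to 9213 to 12520 CPM in WT BAT and 4219 to 7450 CPM in FANKO BAT, with 6 called lower and none at 0. The 6 macrophage markers rose from 62.4 to 120 CPM to 422 to 1125 CPM, and all 6 were called higher. The 5 lymphocyte markers rose from 1.14 to 4.49 CPM to 16.3 to 68.7 CPM, and the 4 stromal markers from 361 to 1102 CPM to 1129 to 2074 CPM. The 6 brown adipocyte markers summed to 4942 to 10870 CPM in WT BAT and 1312 to 3606 CPM in FANKO BAT, without overlap, and 3 of them were called lower. All 4 erythroid markers and 3 of the 4 endothelial markers were also called lower. The part of these shifts in the BAT result was not tested. In bulk tissue, fewer adipocytes and less RNA per adipocyte cannot be told apart.

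The genotype effect was tested against itself between depots. For all 10 members the FANKO over WT difference was lower in BAT than in eWAT past the threshold, where 32.1% of all genes were called in that direction. The gap was widest for *Elovl6* (-3.15 ± 0.36, FDR 1.50e-11), followed by *Acaca* (-2.47 ± 0.22), *Acly* (-2.38 ± 0.31), *Acacb* (-2.21 ± 0.14) and *Fasn* (-2.14 ± 0.27). It was narrowest for *Me1* (-1.05 ± 0.29, FDR 0.0012), and the median was -1.84. With library size alone, which moved the median gene by 0.83 in this contrast, 9 members were called, all with a lower effect in BAT, and *Me1* was not (-0.23, FDR 0.42). Its call was also lost without replicate 1 or 2 (FDR 0.018 and 0.022).

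**Figure D2:**
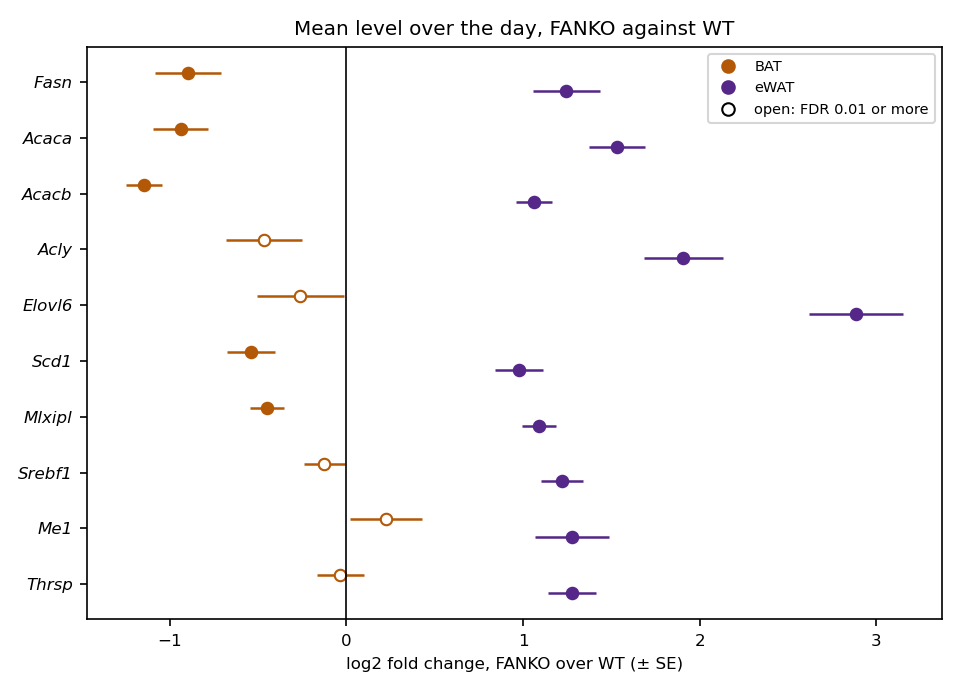
Difference of the mean level over the day between FANKO and WT, as log2 fold change with its SE, for each gene in BAT and eWAT (16 against 16 samples in each depot). Filled points passed an FDR of 0.01 and open points did not. All eWAT points lie between 0.98 and 2.89, and the BAT points between -1.15 and 0.22 with TMM scaling, where 6 of the negative ones turn positive with library size alone.

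The same model, read across depots, showed how the levels of BAT and eWAT compared within a genotype. In WT mice all 10 members were higher in BAT than in eWAT, where 32.7% of all genes were called higher in BAT. The excess was largest for *Acacb* (3.29 ± 0.11 on the log2 scale, FDR 2.03e-35) and *Elovl6* (3.10 ± 0.27, FDR 5.54e-16), and smallest for *Me1* (0.76 ± 0.21, FDR 8.55e-04) and *Srebf1* (0.39 ± 0.12, FDR 0.0022). *Acaca*, *Acacb*, *Elovl6* and *Mlxipl* had every WT BAT sample above every WT eWAT sample, as did 12% of all genes. The calls of *Srebf1* without replicate 2 or 3 (FDR 0.018 and 0.020) and of *Me1* without replicate 2 (FDR 0.018) were lost. With library size alone, which moved the median gene by -0.75, 8 were called higher in BAT, *Srebf1* was called lower (-0.36), and *Me1* was not called.

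In FANKO mice most of this gap was gone. *Acacb* (1.09 ± 0.10, FDR 1.59e-14), *Mlxipl* (0.47 ± 0.10, FDR 2.64e-05) and *Thrsp* (0.44 ± 0.13, FDR 0.0032) were still higher in BAT, where 28.1% of all genes were, and *Srebf1* was lower there (-0.96 ± 0.12, FDR 1.41e-10), as were 31.6% of all genes. The *Thrsp* call was lost without replicate 1, 2 or 3 (FDR 0.024, 0.010 and 0.014). The other 6 did not pass the threshold. *Fasn* differed by 0.00 ± 0.19, with means of 30560 ± 5968 CPM in FANKO BAT and 30430 ± 4960 CPM in FANKO eWAT (SD, n = 16). *Acaca* (-0.44 ± 0.16, FDR 0.0105) and *Scd1* (-0.37 ± 0.14, FDR 0.014) were close to the threshold with lower values in BAT, and both passed it without WT BAT ZT18 replicate 4 (FDR 0.0061 and 0.0023), a library that enters the shared estimate of the spread.

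The median size of the depot difference among the members was 2.02 in WT and 0.40 in FANKO on the log2 scale. It was smaller in FANKO for 9 of 10 members, all but *Srebf1*. Over all genes the median size was 0.69 in WT and 0.40 in FANKO, and it was smaller in FANKO for 66.9% of them.

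**Figure D3:**
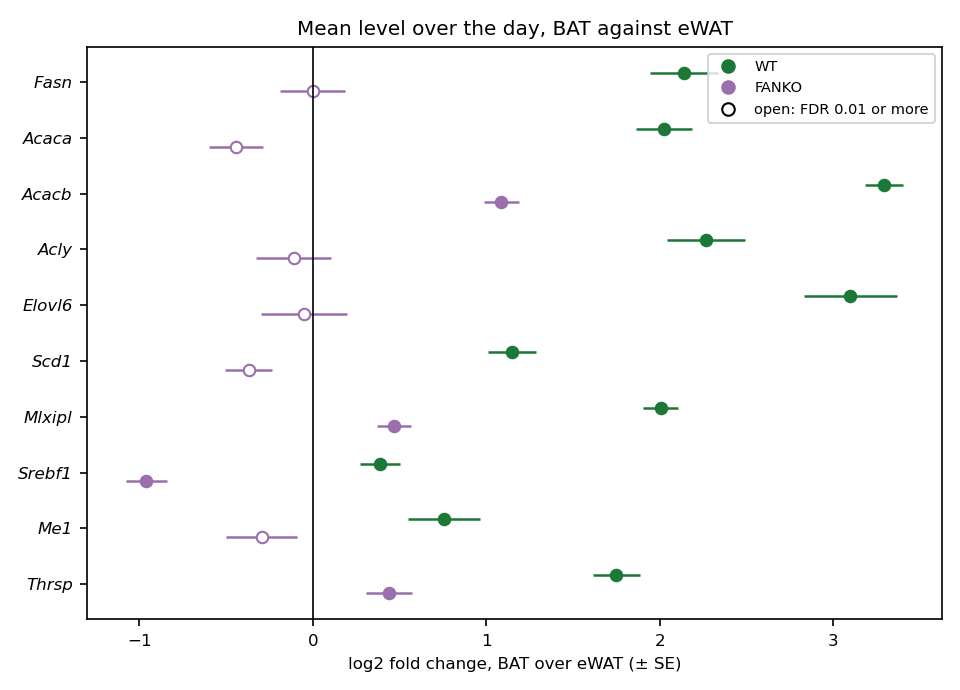
Difference of the mean level between BAT and eWAT within each genotype, as log2 fold change with its SE (16 against 16 samples). Points to the right of 0 are higher in BAT, and open points did not pass an FDR of 0.01. WT points run from 0.39 to 3.29 and FANKO points from -0.96 to 1.09.

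The order of the genes was compared per length, as mean CPM per kilobase of exon. *Scd1* led in each genotype and depot, at 18010 (WT) and 12390 (FANKO) in BAT and at 8126 and 15980 in eWAT. *Fasn* was next, at 5189 and 2792 in BAT and at 1183 and 2779 in eWAT. *Acly* and *Thrsp* held the following ranks and differed by less than 1 SD in each of the 4 combinations. *Mlxipl* was lowest throughout, at 11.5 in WT eWAT and 47.5 in WT BAT. *Elovl6* was above *Acaca* in both BAT genotypes and in FANKO eWAT, but in WT eWAT it lay at 47.4, below *Acaca* (85.5) and *Srebf1* (82.9). In WT BAT *Elovl6* (405.5) and *Acaca* (346.9) differed by less than 1 SD. *Acacb* and *Acaca* were within 1 SD of each other in WT BAT (314 and 347), while in eWAT *Acaca* was above *Acacb* in both genotypes.

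By time point, all calls in eWAT were of higher levels in FANKO. All 10 members were called higher at ZT6 and all 10 at ZT10, against 16.9% and 16% of all genes. At ZT18 there were 4 (*Acaca*, *Elovl6*, *Mlxipl* and *Srebf1*, 8.54% of all genes), and at ZT22 there were 6 (12.6%). The members' median difference lay between 0.98 (ZT18) and 1.54 (ZT6). Of the 40 pairs of gene and time point 30 were called, all higher.

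*Thrsp* in WT eWAT had the widest range of time-point means of the 10 genes. At ZT10 the 4 WT eWAT samples held 459, 454, 682 and 639 CPM and the FANKO samples 2550, 2392, 2110 and 2389 CPM, a 4.23-fold difference (FDR 6.79e-08). At ZT22 the WT samples held 2706, 1989, 2555 and 1096 CPM and the FANKO samples 2722, 3045, 3816 and 2974 CPM (0.59 ± 0.28, FDR 0.10). The highest WT sample then lay just under the lowest FANKO sample.

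*Acacb* in eWAT was called at ZT6, ZT10 and ZT22. At ZT6 the WT samples held 162, 126, 195 and 270 CPM and the FANKO samples 508, 659, 365 and 581 CPM (FDR 8.39e-08). At ZT18 they held 591, 422, 699 and 540 CPM and 919, 892, 654 and 723 CPM, and the ranges overlapped (0.50 ± 0.20, FDR 0.065). *Elovl6*, in contrast, was called at each time, with folds from 5.93 at ZT18 to 9.43 at ZT10. No test compared the genotype effects between time points directly other than the rhythm tests below.

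In BAT 8 of the 40 pairs were called, all lower, and 4 of them were at ZT22. *Acacb* was called at all 4 times, from -0.90 ± 0.20 at ZT10 to -1.38 ± 0.21 at ZT18. *Mlxipl* was called at ZT18 (-0.82 ± 0.20, FDR 3.70e-04) and ZT22 (-0.92 ± 0.20, FDR 8.90e-05), and *Fasn* (-1.18 ± 0.39, FDR 0.0089) and *Acaca* (-1.24 ± 0.32, FDR 8.93e-04) at ZT22. The shares of all genes called lower were 23.9%, 22.4%, 22.5% and 22.7% at the 4 times, and the members' counts were 1, 1, 2 and 4 of 10. Without the 3 WT libraries that were low for these genes (described below) 19 pairs were called lower, a setting that by its choice of libraries favors lower calls in BAT. With library size alone there were 5, of which 3 were higher. With those 3 libraries left out, 42.2% to 49.6% of all genes were called at a time point, in either direction.

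*Fasn* at ZT22 held 59260, 66440, 69130 and 51750 CPM in WT BAT and 30240, 27790, 25090 and 25880 CPM in FANKO BAT, without overlap, as for 23.8% of all genes at that time. *Acly* at the same time held 16660, 16250, 15440 and 11220 CPM in WT and 7911, 7229, 5761 and 6470 CPM in FANKO, also without overlap, and yet missed the threshold (-1.12 ± 0.45, FDR 0.030). The fit shares its estimate of the spread between depots. The SD of *Acly* within groups on the log2 scale was 0.53 in WT BAT, 0.30 in FANKO BAT and 1.36 in WT eWAT. At ZT10 *Acly* had means of 6946 ± 1456 CPM in WT and 7325 ± 974 CPM in FANKO (SD, n = 4).

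Rhythm over the day was tested with a cosine of 24 h. In WT eWAT 3 members passed, *Acacb* (FDR 1.71e-08), *Thrsp* (FDR 1.91e-08) and *Mlxipl* (FDR 0.0013), where 9.38% of all genes did. In WT BAT *Mlxipl* alone passed (FDR 4.04e-07), where 13.9% of all genes did. The remaining members had FDRs of 0.015 (*Srebf1* in eWAT), 0.025 (*Srebf1* in BAT), 0.050 (*Acly* in eWAT) or more. The smallest range of time-point means was 0.12 for *Scd1* in WT eWAT and 0.28 for *Fasn* in WT BAT on the log2 scale.

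*Mlxipl* in WT BAT held 151, 185, 207 and 168 CPM at ZT6, 186, 183, 173 and 155 CPM at ZT10, 317, 397, 395 and 228 CPM at ZT18, and 451, 388, 428 and 196 CPM at ZT22. Replicates 1 to 3 of ZT18 and ZT22 lay above every light-phase sample, as did replicate 4 of ZT18, while replicate 4 of ZT22 did not. The range of the time-point means was 1.00 ± 0.29 on the log2 scale. In FANKO BAT the gene stayed between 140 and 229 CPM at all times, and the range was 0.21 ± 0.18. ChREBP mRNA thus had a night peak in WT and no detected rhythm in FANKO BAT (FDR 0.78), and the direct test of the difference gave an FDR of 0.0094, where 2.76% of all genes passed.

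*Thrsp* in WT eWAT rose from 252 to 957 CPM at ZT6 and 454 to 682 CPM at ZT10 to 1096 to 2706 CPM at ZT22, a range of the means of 1.84 ± 0.34, and its fitted peak lay at ZT21.0. In FANKO eWAT the range was 0.40 ± 0.12 (rhythm FDR 0.47). The difference between genotypes passed (FDR 0.0053), where 1.15% of all genes did. *Acacb* in WT eWAT peaked earlier, with a fitted peak at ZT17.5 and a range of 1.61 ± 0.28. In FANKO eWAT its range was 0.61 ± 0.22 (rhythm FDR 0.095), and the difference between genotypes did not pass (FDR 0.029).

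In FANKO mice no member was rhythmic in either depot by edgeR, limma-voom or DESeq2, where edgeR called 2.84% of all genes in BAT and 6.77% in eWAT. At an unadjusted p of 0.05 there were 0 members in FANKO BAT, where 21.5% of all genes passed, and 1 in FANKO eWAT, where 24.5% did. Within WT mice the rhythm differed between the depots for *Thrsp* (FDR 0.0034) and *Acacb* (FDR 0.0034), where 6.98% of all genes did. No member passed the test of whether the genotype effect on rhythm differed between depots (lowest FDR 0.18, 1 member and 19% of all genes at an unadjusted p of 0.05, and 0 members by limma-voom and DESeq2), where 2.09% of all genes did.

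Without WT BAT ZT18 replicate 4 there were 2 rhythmic members in WT BAT and the depots differed in rhythm for 1, without WT eWAT ZT18 replicate 4 there were 5 rhythmic members in WT eWAT, and without WT eWAT ZT6 replicate 2 the depots differed for 1. The 3 tests of differences in rhythm called 1, 1 and 2 members, and each count went to 0 when replicate 1, 2 or 3 was left out of every group or when time point entered as a factor. *Mlxipl* in BAT gave an FDR of 0.021 with limma-voom and *Thrsp* in eWAT one of 0.040 with separate fits for the depots.

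**Figure D4:**
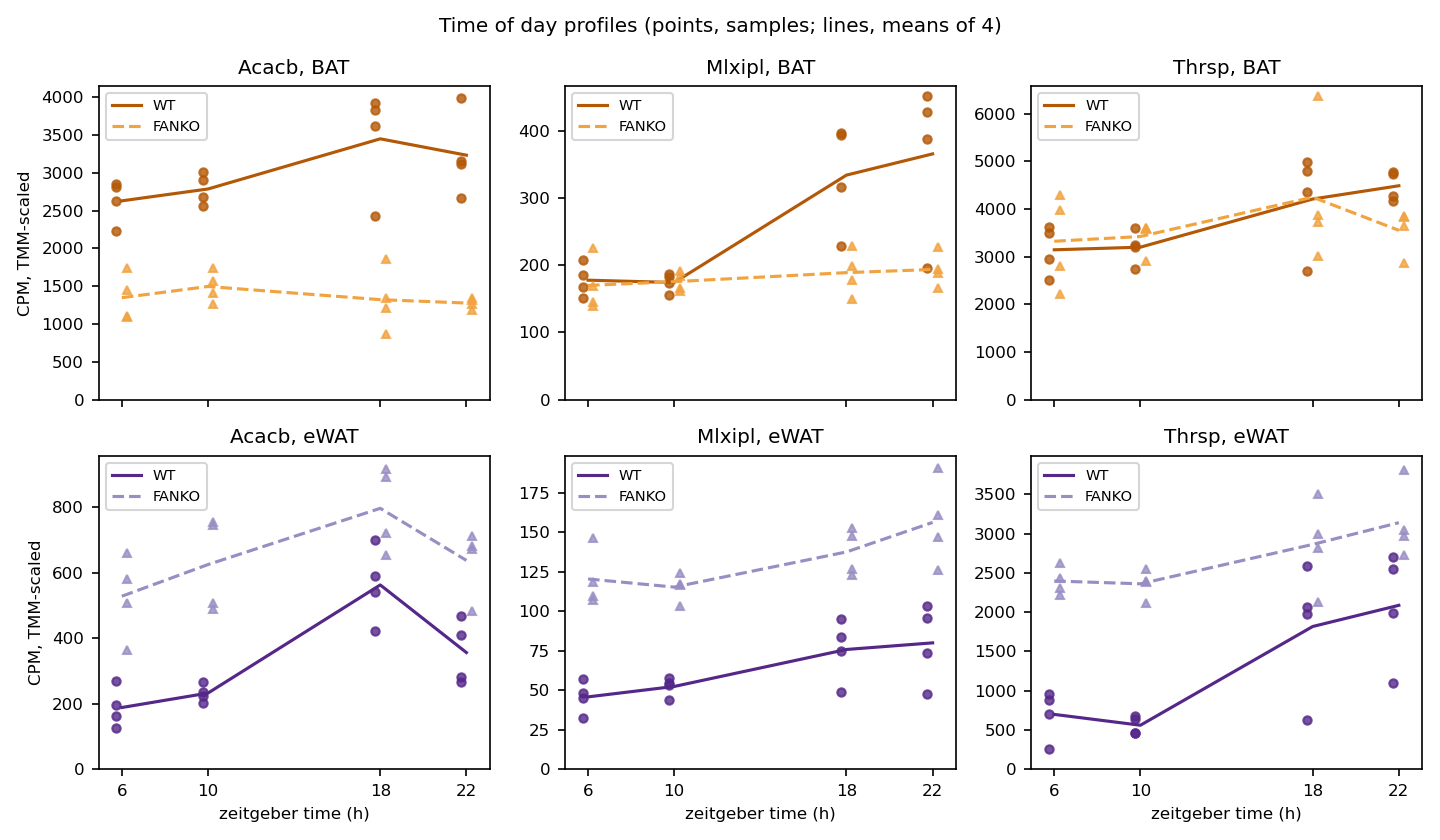
Time of day profiles of *Acacb*, *Mlxipl* and *Thrsp* in BAT (top) and eWAT (bottom), in TMM-scaled CPM. Points are samples and lines join the means of 4, solid for WT and dashed for FANKO. *Mlxipl* in BAT was called at ZT18 and ZT22 only, while *Acacb* in BAT is apart at all 4 times and the WT samples of *Thrsp* in eWAT approach those of FANKO at ZT18 and ZT22.

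The 10 genes were also compared with each other among samples of the same group. After the mean of each group was taken away, all 45 pairs of members had a positive correlation over the 16 samples of WT BAT (median r 0.78), of FANKO BAT (0.76) and of WT eWAT (0.78), and 44 of 45 in FANKO eWAT (0.57). The values of a sample share their library and its scaling, and the WT values include the low libraries described next. The same correlations were not computed for pairs of other genes, so these are descriptions and not a trait of the set.

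Some WT libraries were low for the whole set. Replicate 4 of WT BAT at ZT18 was the lowest of its group for all 10 genes, with 17870 CPM of *Fasn* against 72640 to 78040 CPM in the other 3, and 22440 CPM of *Scd1* against 104800 to 116100 CPM. Replicate 4 of WT eWAT at ZT18 was lowest for 9 of 10, with 15.3 CPM of *Elovl6* against 313 to 596 CPM, and replicate 2 of WT eWAT at ZT6 was lowest for all 10, with 30.6 CPM of *Elovl6* against 221 to 751 CPM. Their mean deviations over the 10 genes were -1.09, -1.72 and -1.26 on the log2 scale. In FANKO mice the lowest such library was replicate 4 of BAT at ZT18, at -0.43.

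The markers of these libraries were compared with the other 3 of their group. Adipocyte markers summed to 12246 CPM in the WT BAT library, within the 10261 to 12523 CPM of its group, and to 16333 CPM in the WT eWAT library at ZT18, within 13976 to 19430 CPM. In the WT eWAT library at ZT6 they summed to 10998 CPM, against 11542 to 14970 CPM in the others. In the FANKO BAT library adipocyte markers summed to 5380 CPM, under the 5987 to 7403 CPM of its group, with more macrophage (1125 CPM, others 422 to 603 CPM) and stromal marker RNA (2074 CPM, others 1129 to 1306 CPM). The part of these markers in the low levels was not tested. The WT BAT library also held the most brown adipocyte marker RNA of its group (8719 CPM, others 4942 to 6465 CPM), the most skeletal muscle marker RNA (427 CPM, others 0.952 to 216 CPM) and the most *Nampt* (1454 CPM, others 764 to 883 CPM). It held the least stromal (361 CPM, others 606 to 1102 CPM), endothelial and lymphocyte marker RNA. The WT eWAT library at ZT18 held the least stromal (2122 CPM, others 2658 to 3343 CPM), macrophage, endothelial and brown adipocyte marker RNA. Its lymphocyte marker RNA was the highest (17.8 CPM, others 6.48 to 8.64 CPM). That at ZT6 held the least macrophage and brown adipocyte marker RNA. The part of these shifts was not tested. Without these 3 WT libraries, which were left out after seeing the data, 6 members were called lower in FANKO BAT (*Acly* was added) and all 10 higher in FANKO eWAT. The libraries were picked by low values of these same genes, and no FANKO library was left out. This raises the WT means, so the choice itself favors lower calls in FANKO BAT and the added calls are no support. In that setting 67.4% of all genes were called in BAT and 47.4% in eWAT, in either direction.

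The spread between WT samples of eWAT was wide for these genes. The SD within groups on the log2 scale had a median over the members of 0.79 in WT eWAT and 0.28 in FANKO eWAT, while the median over all genes was 0.27 and 0.25. It reached 1.69 for *Elovl6*, 1.36 for *Acly* and 1.15 for *Fasn* in WT eWAT, against 0.40, 0.30 and 0.26 in FANKO eWAT. In BAT the medians over the members were 0.41 in WT and 0.30 in FANKO, and those over all genes 0.30 and 0.28. The SD was smaller in FANKO for all 10 members in eWAT and for 8 in BAT, where *Acacb* (0.22 in WT, 0.30 in FANKO) and *Thrsp* (0.26 and 0.35) went the other way. The share of all genes with a smaller SD in FANKO was not computed. The WT values include the low libraries above, and no SD was computed without them. *Elovl6* had a 2.66-fold range in FANKO eWAT and a 49.2-fold range in WT eWAT, which was 24.6-fold without WT eWAT ZT18 replicate 4 and 9.46-fold without ZT6 replicate 2 as well.

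The surrounding pathway was described with 46 further genes, all of which were tested. In eWAT 30 of them were called higher in FANKO and 6 lower, with a median difference of 0.39, where 27.6% of all genes were called higher and 22.8% lower. In BAT 14 were called higher and 22 lower (median -0.20), where 33.1% and 33.9% of all genes were. With library size alone the split was 29 higher and 7 lower in BAT and 18 and 11 in eWAT.

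Of the 9 genes that supply citrate and NADPH, 7 were called higher and 1 lower in eWAT. The citrate carrier *Slc25a1* rose by 2.24 ± 0.17 (FDR 1.47e-17) and the pentose phosphate enzyme transketolase (*Tkt*) by 1.81 ± 0.16 (FDR 6.24e-15). In BAT the 9 split into 3 higher and 4 lower, and *Me3*, a mitochondrial malic enzyme, fell by 2.12 ± 0.09 (FDR 9.05e-30), the largest fall of the 46. In eWAT *Me3* was also lower (-0.35 ± 0.11, FDR 0.0044), a call lost with limma-voom (FDR 0.016), without replicate 1, 2 or 4 (FDR 0.026, 0.014 and 0.014) and without WT eWAT ZT18 replicate 4 (FDR 0.017).

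All 5 genes that act on acetyl-CoA carboxylase or malonyl-CoA were called higher in eWAT. *Trib3*, a pseudokinase that promotes degradation of the carboxylase, rose most (2.46 ± 0.13, FDR 4.72e-24), so this list holds opponents of the pathway as well as helpers. In BAT 3 of the 5 were lower and 1 was higher, *Trib3* itself (0.39 ± 0.13, FDR 0.0079). That call was lost with the mitochondrial genome left out (FDR 0.011), with limma-voom (FDR 0.044) and without replicate 1, 2 or 4 (FDR 0.025, 0.020 and 0.030).

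Of the 6 other desaturases, 4 were called higher and none lower in eWAT, and 4 higher and 1 lower in BAT. Of the 12 elongation genes, 6 were called higher and 3 lower in eWAT, and 3 higher and 5 lower in BAT. *Scd3*, a close relative of *Scd1* on the same chromosome, rose by 3.04 ± 0.15 in eWAT (FDR 9.85e-25), the largest rise of the 46, and by 1.15 ± 0.15 in BAT. Because these paralogs share sequence and the handling of reads that match several genes is not given in the sources used here, their values are uncertain. The fatty acid desaturases *Fads3* (2.01 ± 0.10, FDR 9.20e-26) and *Fads2* (1.39 ± 0.10, FDR 3.92e-19), and the elongation genes *Hacd4* (1.72 ± 0.11, FDR 3.53e-21) and *Elovl1* (1.37 ± 0.07, FDR 2.78e-25), were the 4 largest rises in BAT, in the depot where no member was called higher with TMM scaling. Macrophage markers rose in BAT as well (above), and their part in these 4 was not tested. In eWAT *Fads3* did not pass (0.07 ± 0.10, FDR 0.57) and *Hacd4* fell by 0.41 ± 0.10 (FDR 2.94e-04).

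The largest falls in BAT beside *Me3* were *Insig1* (-1.78 ± 0.16, FDR 1.08e-15), whose protein holds SREBP in the endoplasmic reticulum, the elongase *Elovl4* (-1.52 ± 0.24, FDR 6.04e-08) and the dehydratase *Hacd1* (-1.40 ± 0.09, FDR 1.39e-20). *Insig1* and *Elovl4* went the other way in eWAT, by 0.57 ± 0.15 (FDR 0.0011) and 1.30 ± 0.26 (FDR 2.40e-05). The *Insig1* call in eWAT was lost with library size alone (0.33, FDR 0.035) and without replicate 1 or 2 (FDR 0.011 and 0.035). Among the genes called lower in eWAT the largest falls were small, with *Hacd2* (-0.53 ± 0.09, FDR 7.61e-07) and *Hacd1* (-0.46 ± 0.09, FDR 7.74e-06) at the head. Of the 6 genes of SREBP processing, 3 were called higher and 1 lower in eWAT, and 1 higher and 4 lower in BAT. Of the 7 partners of ChREBP and LXR, 4 were called higher and 1 lower in eWAT, and 2 higher and 4 lower in BAT. The list for glucose entry held 1 gene, the insulin-responsive glucose transporter *Slc2a4*, which was higher in FANKO eWAT (1.19 ± 0.08, FDR 1.89e-20) and lower in FANKO BAT (-0.85 ± 0.08, FDR 1.92e-15).

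**Figure D5:**
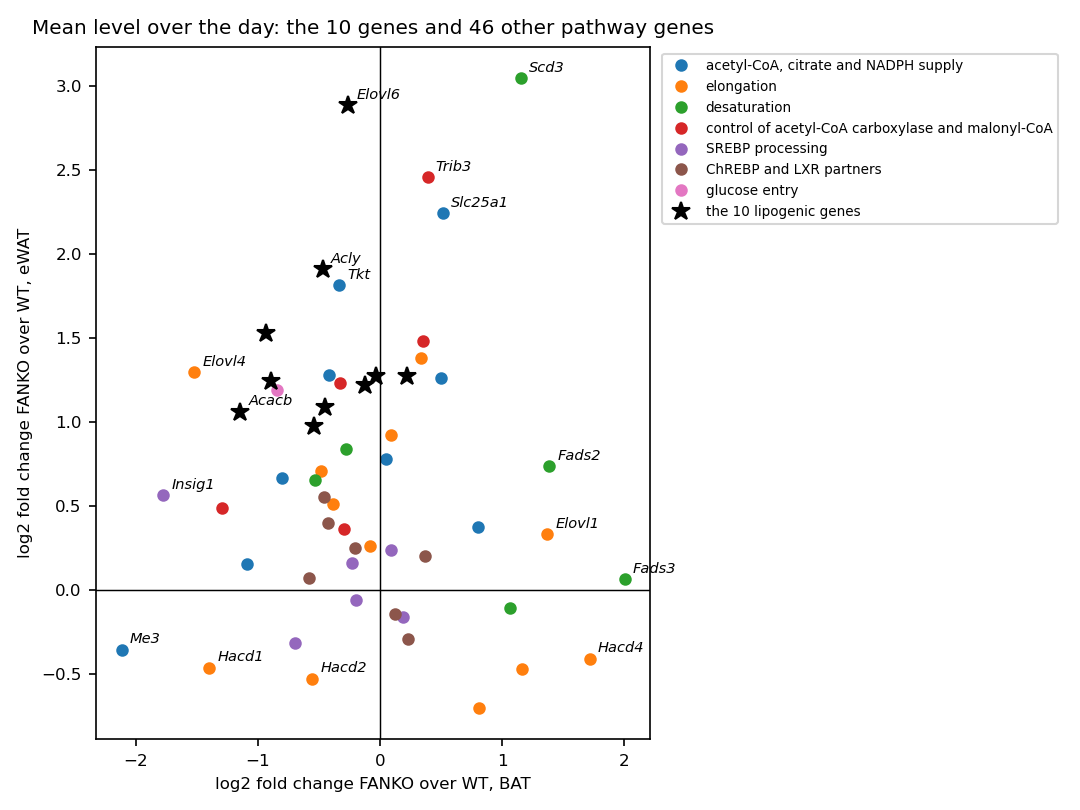
Log2 fold change of the mean level, FANKO over WT, in BAT (horizontal axis) against eWAT (vertical axis), for the 10 lipogenic genes (stars) and the 46 other pathway genes (circles, colored by role). All stars lie above 0 on the vertical axis and with TMM scaling all but *Me1* lie left of 0 on the horizontal axis (6 of them turn positive with library size alone), while several desaturation and elongation genes lie far to the right.

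The profile of the members over the 16 groups was compared with that of every other gene tested, as the Pearson r of the group means with the members' mean standardized profile. The 5 most alike were *Mpc1-ps* (0.987), *Mpc1* (0.986), *Tkt* (0.983), *Psmd12* (0.981) and *Cox19* (0.979). *Mpc1* encodes a subunit of the mitochondrial pyruvate carrier, and *Mpc1-ps* is a pseudogene copy of it, so reads may be shared between the pair and neither value stands alone. Among the members themselves r with that mean profile ran from 0.61 for *Srebf1* to 0.98 for *Acly*. These are values over 16 group means of the same libraries, and they carry no test.

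Overlapping annotation limits some of the values. *Srebf1* overlaps *Rai1* on the opposite strand, and *Acaca*, *Acacb*, *Elovl6*, *Mlxipl* and *Me1* each overlap a listed gene model on the opposite strand. The libraries were stranded, but the strand setting of the counting is not given in the sources used here. *Fasn*, *Scd1* and *Thrsp* overlap no listed gene. The counts are per gene, so the alternative starts of *Srebf1*, *Mlxipl* and *Me1* cannot be told apart.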

How the data were processed

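RNA was extracted with TRI reagent and RNeasy columns, and libraries were made with a stranded total RNA protocol after removal of ribosomal RNA. Per the labels, the submitters' processing notes name FastQC 0.11.5, MultiQC 1.2, STAR 2.5.3a, featureCounts 1.5.3 and the build GRCm38.p5. The authors deposited raw counts of reads per gene for 64 samples. The strand and multi-mapping settings of the counting are not given in the sources used here.

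Genes were filtered with filterByExpr over the 16 groups (32387 of 52636 removed), scaled by TMM and fitted with edgeR 4.0.16 (R 4.3.3) by the quasi-likelihood test, with p values adjusted by Benjamini-Hochberg over all 20249 genes and a threshold of 0.01. The mean level and rhythm came from a cosinor model (an intercept and 2 terms of a 24 h wave for each genotype and depot), and time-point contrasts from a model of 16 group means. The SE is the log2 change divided by the square root of F. CPM values are TMM-scaled, and log2 values use a prior count of 2. The model fit was tested on simulated data, for the FANKO over WT mean level in eWAT and the rhythm in WT eWAT only. No within-group pair of libraries agreed within sampling noise over 96 pairs. The members, lists and tests were chosen with earlier results of these data known. All 10 members were named, with the 4 largest increases and decreases called among the 46 pathway genes in each depot and the 5 genes most alike in profile. limma 3.58.1 (voom), DESeq2 1.42.0, other scalings, filters and thresholds, a fit for each depot, replicate blocks and left-out replicates were tried. Scaling to adipocyte markers and leaving out 3 low WT libraries, jointly and singly, were chosen after seeing the data.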

Additional observations from a re-analysis of the deposited data

Results flagged for a closer look

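The FANKO over WT difference of the mean level differed between BAT and eWAT for each of the 10 genes, by the interaction term of the edgeR model. For *Me1* the difference did not pass with library size alone (-0.23, FDR 0.42) or without replicate 1 or 2 (FDR 0.018 and 0.022). BAT minus eWAT was -2.14 for *Fasn*, -2.47 for *Acaca*, -2.21 for *Acacb*, -2.38 for *Acly*, -3.15 for *Elovl6*, -1.52 for *Scd1*, -1.54 for *Mlxipl*, -1.35 for *Srebf1*, -1.05 for *Me1* and -1.31 for *Thrsp*, on the log2 scale.

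In 11 of 160 groups of 4 samples (6.88%) 1 sample stood apart by Dixon's test, which chance does in about 1 in 20 groups. Replicate 4 of WT BAT at ZT18 was low for *Fasn* (17870 CPM), *Acly* (3925 CPM) and *Scd1* (22440 CPM). Replicate 1 of FANKO eWAT at ZT10 was high for *Scd1* (89800 CPM) and *Srebf1* (1785 CPM). High values were also found for *Acaca* in FANKO BAT ZT18 replicate 3 (4536 CPM), *Srebf1* in FANKO BAT ZT10 replicate 1 (694.4 CPM) and *Me1* in FANKO eWAT ZT6 replicate 2 (1894 CPM). Low values were found for *Acacb* in FANKO eWAT ZT22 replicate 1 (484.3 CPM), *Srebf1* in WT eWAT ZT22 replicate 4 (274.6 CPM) and *Thrsp* in FANKO BAT ZT10 replicate 2 (2906 CPM).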

How the results depend on the processing

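All 10 members were higher in FANKO eWAT under every alternative run. With library size alone the BAT differences turned for *Acly* (0.12), *Elovl6* (0.32), *Scd1* (0.053), *Mlxipl* (0.14), *Srebf1* (0.46), *Thrsp* (0.55), *Tkt* (0.25) and *Hacd2* (0.0059), on the log2 scale. *Fads3* in eWAT became -0.18, *Srebf1* between the depots of WT -0.36 and *Elovl6* between those of FANKO 0.026. This setting also gave 5 calls over BAT time points, of which 3 were higher, and 0 members with a different rhythm in BAT. With adipocyte marker scaling the BAT values turned for *Acly* (0.23), *Elovl6* (0.43), *Scd1* (0.15), *Mlxipl* (0.26), *Srebf1* (0.59), *Thrsp* (0.66), *Tkt* (0.36) and *Hacd2* (0.13), and in eWAT those of *Hacd4* (0.11), *Me3* (0.15) and *Hacd1* (0.062).

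Other reversals were of values near 0. *Thrsp* in BAT was 0.0105 with RLE factors and with DESeq2, 0.0063 with separate fits and -0.0761 to 0.0052 with 1 replicate or library left out. *Elovl6* between the depots of FANKO was 0.027 with RLE factors and DESeq2 and -0.1425 to 0.046 with 1 replicate or library left out. *Fasn* between the depots of FANKO was -0.0014 without the 3 low WT libraries and -0.0476 to 0.0844 with 1 replicate or library left out. *Fads3* in eWAT was -0.006 without replicate 4.

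The tests of rhythm moved most. Members with a different rhythm numbered 0 in BAT with limma-voom, 0 in BAT and 0 in eWAT with separate fits, and 0 in BAT, 0 in eWAT and 0 between depots with time as a factor. A threshold of 0.05 gave 2 in eWAT. Rhythmic members numbered 2 in WT BAT at an FDR of 0.05 and with separate fits, and 5 in WT eWAT with DESeq2. With separate edgeR fits the gene added in WT BAT was *Acly* (FDR 0.0027). BAT time points gave 14 calls at an FDR of 0.05 and 13 with separate fits. Without the 3 low WT libraries there were 3 rhythmic members in WT BAT, 5 in WT eWAT, 1 that differed between depots and 19 calls over BAT time points. The shares of all genes called there were 14.7%, 10.9% and 8.02%, and 42.2% to 49.6% at the BAT time points. Without WT BAT ZT18 replicate 4 there were 2 rhythmic members in WT BAT and 1 that differed between depots, without WT eWAT ZT18 replicate 4 there were 5 in WT eWAT, and without WT eWAT ZT6 replicate 2 there was 1 that differed between depots. Leaving out each replicate number in turn gave 0 to 1 members with a different rhythm in BAT, 0 to 1 in eWAT, 0 to 2 between depots, 1 to 3 rhythmic members in WT BAT, 2 to 7 in WT eWAT and 5 to 12 calls over BAT time points. The cause was not tested.

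The labels do not tie the replicate numbers to animals, and not every same-numbered pair deviated together. Same-numbered BAT and eWAT samples had a median correlation of deviations of 0.0527 (lowest -0.1325, 10 of 32 over 0.1), against -0.0214 for samples with other numbers (5 of 96 over 0.1), and 18 of 32 correlated best with their own number among 4. Samples of the same depot and number but another genotype or time point cannot be of the same animal. Their median was 0.0415, with 47 of 224 over 0.1. Shared animals and other links of a number cannot be told apart here. With the replicate block, BAT against eWAT in FANKO called 6 members in place of 4 (*Acaca* and *Scd1* were added, both lower in BAT), 32 pairs of gene and time point were called in eWAT in place of 30, *Fasn* between the depots of FANKO became -0.0065 (-9e-04 with same-numbered depots as the block), and the other counts of calls were as without it.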
